A study of Mus musculus with 3 samples.

Results

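Foxp3 (ENSMUSG00000039521.13), which spans 7573644 to 7595245 on the plus strand of chromosome X in mm10, was chosen by its symbol in the GENCODE M21 annotation, together with all 10 of its annotated transcripts, and is 1 of the 55536 genes in the deposited gene tables. The RNA came from primary regulatory T cells (Tregs) that had experienced inflammation and were taken from mouse material of 12 weeks of age. The labels describe 1 biosample of 1 donor and 3 polyA plus libraries, numbered as technical replicates 1 to 3 of 1 biological replicate, so the libraries form 1 group and there is no other condition to set it against. The labels also call the source an activated Treg. The sources used here do not name the inflammatory agent, the genotype or the sorting gate. The libraries hold 31611422 to 37728241 expected counts in named genes. Library 3 stands apart from libraries 1 and 2 by transcripts of salivary gland markers, which summed to 4.91, 11.0 and 56788 TPM in libraries 1 to 3. Without library 3, the mean level of Foxp3 was 98.2 TPM and the share of its NMD transcript, described below, was 52.6%, against 97.6 TPM and 51.2% with all 3. Apart from the deposited posterior SD, which is an estimation error within a library, every SD and p-value below measures the spread between these libraries and says nothing about the spread between mice.

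Foxp3 encodes a transcription factor of the forkhead family that sets and keeps the identity of Tregs, a CD4 T cell lineage that holds immune responses in check. The protein works with a zinc finger and a leucine zipper, through which it pairs with itself and its relatives, and with a forkhead, the DNA-binding domain at its C-terminal end. Human T cells are known to make FOXP3 isoforms that lack exon 2 or exon 7. Nonsense-mediated decay (NMD) is the surveillance pathway that degrades mRNAs whose stop codon lies well upstream of the last exon junction.

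The 10 transcripts differ at their start, in a few coding exons and at their 3' end. GENCODE M21 names 9 of them protein-coding and 1, Foxp3-207, a target of NMD. Foxp3-206, Foxp3-210 and Foxp3-201 to Foxp3-204 carry the full coding sequence of 429 codons before the stop. Foxp3-208 lacks coding exon 2, which is 105 bases or 35 codons long, and keeps 394 codons. Foxp3-205 lacks coding exon 7, which is 81 bases or 27 codons long, and keeps 402 codons. Foxp3-207 lacks coding exon 9, whose 77 bases are no multiple of 3. Its reading frame ends after 335 codons at a TGA that lies 61 bases before the last exon junction, whereas the full-length stop lies 144 bases past it, and the frame ends before the last coding exon. Foxp3-209 is an incomplete model whose reading frame has no annotated end. The exons that separate these transcripts are shown because the shares below turn on them. They were read from the GENCODE M21 transcripts on mm10, plus strand, and coding exon 2 lies at chrX:7587074-7587178, coding exon 7 at chrX:7589096-7589176 and coding exon 9 at chrX:7592159-7592235.
Coding exon 2, absent from Foxp3-208: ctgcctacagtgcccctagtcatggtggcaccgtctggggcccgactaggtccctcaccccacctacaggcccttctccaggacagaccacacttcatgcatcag
Coding exon 7, absent from Foxp3-205: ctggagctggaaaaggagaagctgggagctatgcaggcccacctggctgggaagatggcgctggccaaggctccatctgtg
Coding exon 9, absent from Foxp3-207: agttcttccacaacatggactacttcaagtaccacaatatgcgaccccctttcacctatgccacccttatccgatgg

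Leaving an exon out creates a junction found in that transcript and in no other annotated mouse transcript. The junctions follow with the downstream exon in capitals and 15 bases on each side.
Foxp3-208, coding exons 1 and 3: ccatcccagctgcagCTCTCCACTGTGGAT
Foxp3-205, coding exons 6 and 8: tctctggagcagcagGCCTCAATGGACAAG
Foxp3-207, coding exons 8 and 10: atagttccttcccagGCCATCCTGGAAGCC
Foxp3-207, start of coding exon 10 to its stop codon, the stop in capitals (chrX:7592650-7592690): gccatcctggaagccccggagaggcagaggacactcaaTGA

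**Figure D1:**
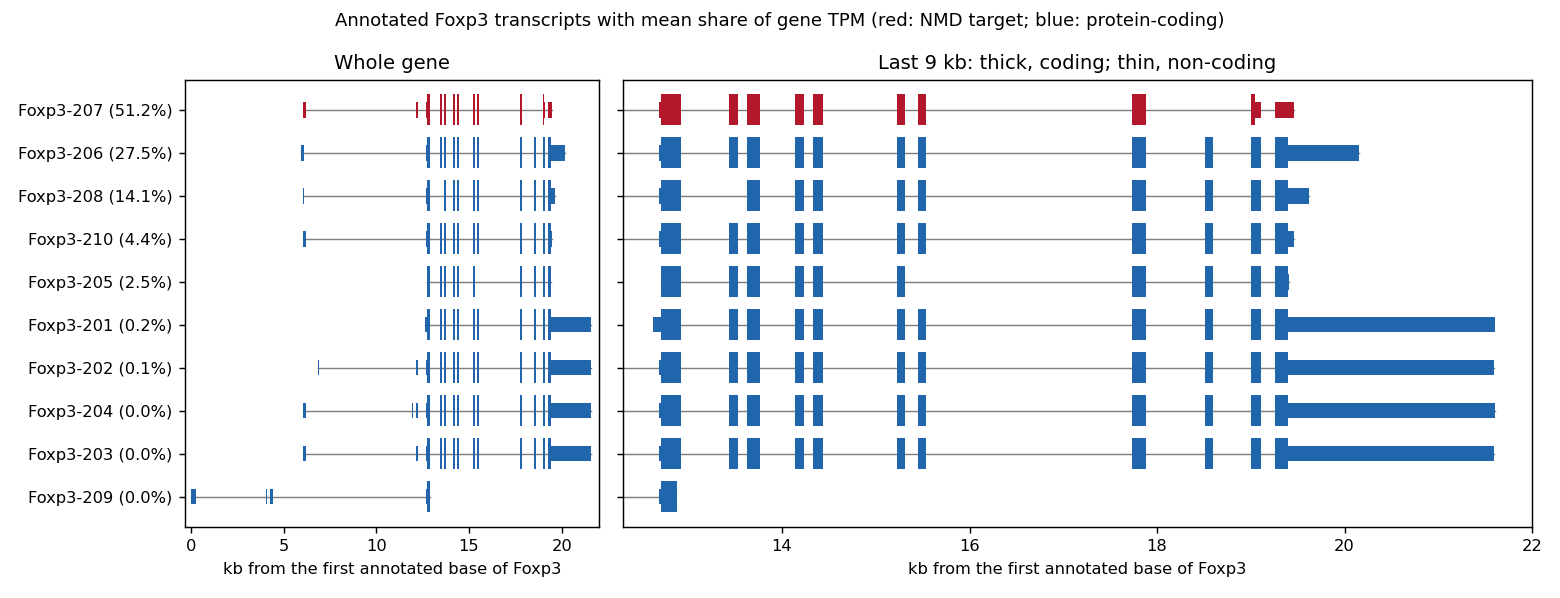
Exon maps of the 10 annotated Foxp3 transcripts, with the whole gene on the left and its last part enlarged on the right. The horizontal axis is the distance in kb from the first annotated base of Foxp3, thick boxes are coding, thin boxes are non-coding, and the percentages are mean shares of Foxp3 TPM over 3 libraries. Foxp3-207 (red) lacks coding exon 9 and has the largest share, 51.2%.

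As a gene, Foxp3 stood at nearly the same level in all 3 libraries. It had 98.12, 98.36 and 96.45 TPM in libraries 1 to 3 (an abundance per length, scaled to a fixed sum), a mean of 97.6 ± 1.04 TPM (SD, n = 3). The values lie within a ratio of 1.02 of each other. In library 3, the fixed sum includes 56788 TPM of salivary gland markers. In rank among 22028 protein-coding genes it was 1915th, 1936th and 1810th, with 91.3%, 91.2% and 91.8% of them below it. The 12883 genes detected, with a TPM of at least 1 in every library, had a median of 24.1 TPM.

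The reads behind these values were 3636.12, 3242.76 and 3848.7 expected counts, which are reads shared out among genes by a model. They amount to 102.2, 102.6 and 102.0 CPM, the count scaled to library size and taken over reads in named genes, with 95% Wilson intervals of 98.9 to 105.5, 99.1 to 106.2 and 98.8 to 105.3, which cover counting error only. All 3 intervals overlap, but the size of library 3 includes its salivary gland transcripts. After TMM scaling (trimmed mean of M values) the counts were 3462, 3579 and 3663, lowest in library 1 and highest in library 3, a ratio of 1.06, whereas in CPM library 3 was the lowest. A chi-square test against Poisson counting noise over 18253 genes, with Benjamini-Hochberg adjustment, gave Foxp3 an adjusted p = 0.0633, so that the gene was not called different between libraries. Without library 2 it was called, with an adjusted p = 0.0321 at the same ratio, where 49.1% of genes were called. Without library 1 or library 3 it was not called (adjusted p = 0.410 and 0.236), where 57.7 and 60.9% of genes were. The test called 77.2% of genes. Of 1063 genes with a mean count within a factor of 1.2 of that of Foxp3, 917 (86.3%) were called. The coefficient of variation of scaled counts was 2.83% for Foxp3, against a median of 6.56% for those genes, and 132 of them had a lower value. The deposited table against the older annotation M4 gave Foxp3 1704, 1640 and 1819 whole-number counts. Those counts were not called different either (adjusted p = 0.283; 52.1% of 12056 genes called). M4 counts level off at high expression: Tcf7 had 21200 expected counts and 1911 M4 counts in library 1. For Foxp3 they were 46.9 to 50.6% of the expected counts, so the M4 test could miss a difference.

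Several deposited values of Foxp3 depend on how the level is expressed. The posterior mean TPM, a second estimate in the same tables, was 91.88, 91.82 and 90.76 with deposited bounds of 88.4 to 95.3, 88.2 to 95.6 and 87.3 to 94.1. The TPM of Foxp3 lay above these bounds in every library. The bounds belong to the posterior mean, in whose scale rows of transfer RNAs and spike-ins take 5.42, 5.90 and 4.99% of the total, against 0.719, 0.6 and 0.666% in the TPM scale. TPM corrects for the mean length of the transcripts assigned to the gene, about 1727 bases here, so the level rests on which transcripts were assigned. With the length of the longest protein-coding transcript in its place, the level was 43.3 ± 0.983. In a bulk sample, fewer cells with Foxp3 and less Foxp3 RNA per cell cannot be told apart.

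**Figure D2:**
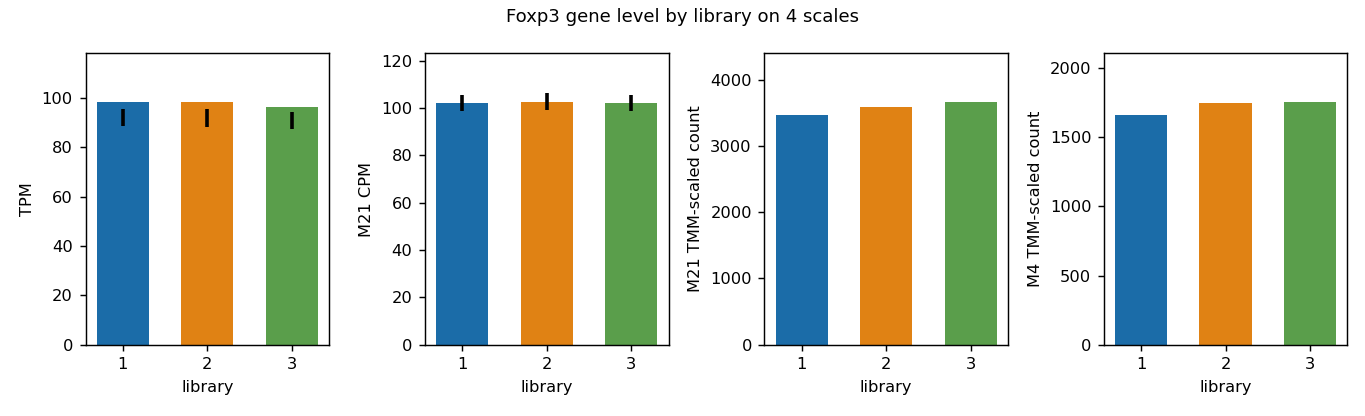
Foxp3 by library on 4 scales, with a bar per library starting at 0: TPM, M21 CPM, M21 TMM-scaled counts and M4 TMM-scaled counts. Vertical lines are the deposited bounds of the posterior mean TPM in the first panel and 95% Wilson intervals in the second, and the TPM bars reach above the bounds.

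The NMD-annotated Foxp3-207 was the transcript with the highest estimate in every library. It held 57.72, 47.5 and 48.27% of Foxp3 TPM in libraries 1 to 3, or 51.2 ± 5.69%, at 56.63, 46.71 and 46.56 TPM. Library 1 was the highest and libraries 2 and 3 were close together. Foxp3-206, with the full coding sequence and a 3' end of middle length, came second with 27.42, 28.8 and 26.28%, or 27.5 ± 1.26%. It was the steadiest of the larger transcripts, at 26.9, 28.32 and 25.34 TPM.

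Foxp3-208, which lacks coding exon 2, held 10.46, 17.53 and 14.36%, or 14.1 ± 3.54%. Its order over libraries in these shares was the opposite of that of Foxp3-207, lowest in library 1. In TPM, at 10.26, 17.24 and 13.85, Foxp3-208 was again lowest in library 1. Foxp3-207 had nearly equal TPM in libraries 2 and 3, at 46.71 and 46.56, so its order between them is not settled. Foxp3-210, full coding and with the shorter 3' end, held 1.58, 5.61 and 6.08%, and Foxp3-205, which lacks coding exon 7, held 2.55, 0 and 4.94%. Their means were 4.42 ± 2.47% and 2.50 ± 2.47%, with a spread between libraries that is large for their size. The 0 of Foxp3-205 in library 2 stands beside a posterior mean of 49 counts with a posterior SD of 35.8, so it does not show absence. Foxp3-201 held 0.27, 0.31 and 0.07%, and Foxp3-202 held 0.26% in library 2 and 0 in the others. Foxp3-203, Foxp3-204 and Foxp3-209 had 0 expected counts in every library. These zeros are assignments by the model and do not show that the transcripts were absent. In libraries 1 to 3, the posterior mean counts were 7.9, 5.2 and 5.73 for Foxp3-203 and 5.84, 4.82 and 5.01 for Foxp3-204. For Foxp3-209 they were 1.32, 2.53 and 2.7.

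**Figure D3:**
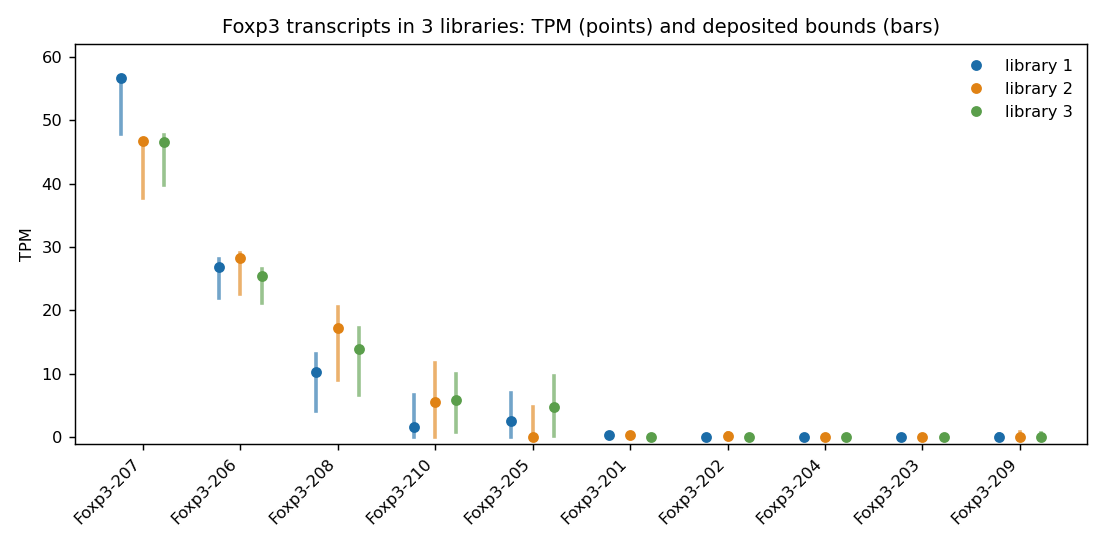
TPM of each Foxp3 transcript by library (points), with the deposited bounds of the posterior mean TPM as bars. Foxp3-207 lies above Foxp3-206 in all 3 libraries with bounds that do not overlap, while the bounds of Foxp3-210 and Foxp3-205 reach down to or near 0.

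The order of Foxp3-207, Foxp3-206 and Foxp3-208 was the same in all 3 libraries. A pair of transcripts was called apart where the sign of the difference was shared by every library and neither the ranges over libraries nor, within any library, the deposited bounds overlapped. By that rule 22 of 45 pairs were apart. Foxp3-207 stood above Foxp3-206 by 0.87 ± 0.17 in log2(TPM + 1), and Foxp3-206 above Foxp3-208 by 0.94 ± 0.33. Foxp3-208 was not apart from Foxp3-210 or Foxp3-205, with differences of 1.58 and 2.41 in log2(TPM + 1), nor was Foxp3-210 from Foxp3-205, with 0.83. In CPM without length correction, where the deposited bounds were not part of the rule, Foxp3-208 was apart from both. For Foxp3-207 against Foxp3-206, an exact permutation of signs (two-sided) gave p = 0.25. This is the smallest value with 3 libraries, and 0.05 was out of reach for any pair.

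None of the 6 Foxp3 transcripts with enough counts to test was called different between libraries, given counting noise and the deposited posterior SD of the count, and 1 of them, Foxp3-207, had an unadjusted p under 0.05 (chi-square test, p = 0.0264). The heterogeneity chi-square test with Benjamini-Hochberg adjustment over 50909 transcripts called 38% of them. The adjusted p was 0.0654 for Foxp3-207, 0.803 for Foxp3-206, 0.282 for Foxp3-208, 0.470 for Foxp3-210, 0.414 for Foxp3-205 and 0.491 for Foxp3-201. With Poisson noise alone, 5 of the 6 were called, all but Foxp3-206, against 76.5% of all transcripts. Without library 3, Foxp3-207 was called with an adjusted p = 0.0328, where 28.1% of all transcripts were called. None of the 6 was called without library 1 or library 2, where 26 and 19% of all transcripts were.

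The shares are model estimates over the annotated transcripts. The deposited posterior SD takes those transcripts as given and does not cover a transcript missing from the annotation. Whether reads of such a transcript were assigned to Foxp3-207 was not tested. Within that limit, the posterior SD differed between transcripts. The deposited posterior SD was 3.47 to 4.39% of the count for Foxp3-207 and 5.35 to 5.67% for Foxp3-206. It was 17.8 to 23.7% for Foxp3-208 and 45.6 to 139% for Foxp3-210. For Foxp3-205 it was 86.6% in library 1 and 58.7% in library 3. The Foxp3 transcripts hold 4803 distinct stretches of 50 bases, the read length implied by the deposited effective lengths. Of these, 456 belong to a single Foxp3 transcript and no other gene, while 2024 belong to at least 5. Foxp3-207 has 48 stretches of its own in which an even spread of its reads would place 60.0, 43.5 and 53.8 counts. Foxp3-208 has 44, Foxp3-210 has 43, Foxp3-205 has 48 and Foxp3-206 has 0. The 102 stretches that Foxp3-206 shares with no other Foxp3 transcript also occur in Flicr, a noncoding gene of the same locus. Reads across single junctions were not analysed here.

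Grouping the transcripts by feature shows which parts of the estimates are steady between libraries. Transcripts that start in the largest group of starts, between 7579567 and 7579676, held 97.2 ± 2.23% of Foxp3 TPM. Within it, the longer first exon held 55.6 ± 3.28% and the shorter first exon 41.6 ± 4.31%. A non-coding exon of 83 bases (chrX:7585812-7585894) shared by Foxp3-202, Foxp3-203, Foxp3-204 and Foxp3-207 held 51.3 ± 5.61%, almost all of it through Foxp3-207.

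Short 3' ends, at most 300 bases past the full-length stop, held 72.31, 70.64 and 73.65%, or 72.2 ± 1.51%. The middle end, 756 bases past the stop in Foxp3-206, held 27.5 ± 1.26%, and the long ends, 2191 to 2202 bases past it, held 0.303 ± 0.252%. The SDs of the short and middle shares between libraries were smaller than that of Foxp3-207, whereas the SD of the long ends was large for their share. Transcripts with a short 3' end that keep coding exon 9 held 14.59, 23.14 and 25.38%, lowest in library 1, where Foxp3-207 was highest. Transcripts with the full coding sequence held 29.27, 34.98 and 32.43%, or 32.2 ± 2.86%. In the annotation, Foxp3-207 is the only transcript that joins the 83-base non-coding exon to a short 3' end. What this does to its estimate was not tested.

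**Figure D4:**
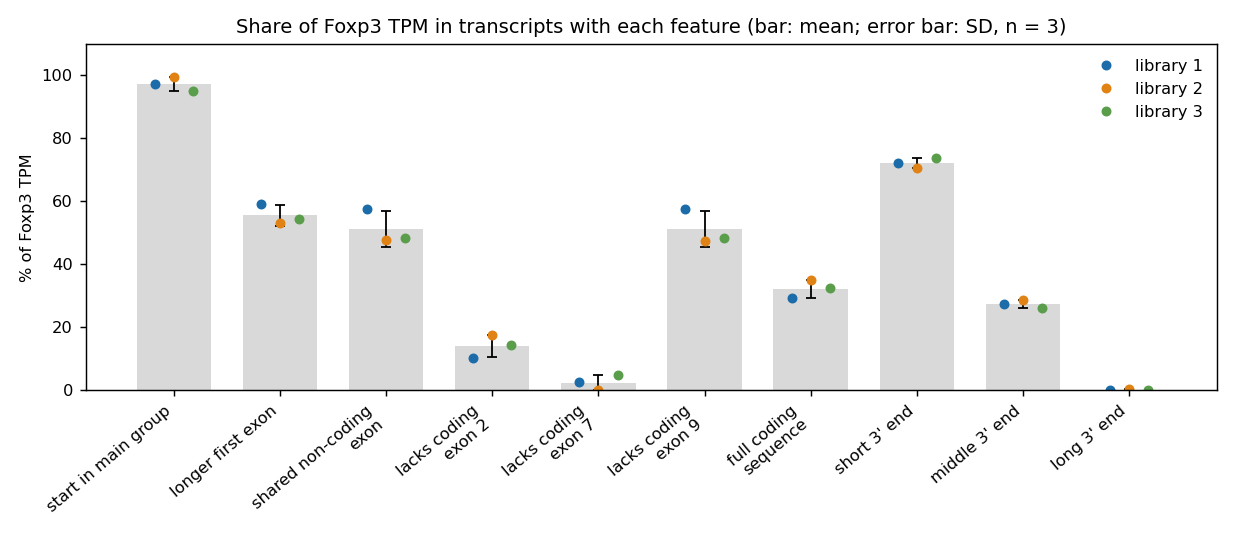
Share of Foxp3 TPM held by transcripts with each feature, with points for the 3 libraries, bars for the mean and error bars for the SD. Short 3' ends lie between 70.64 and 73.65%, while transcripts that lack coding exon 9 lie between 47.5 and 57.72%.

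By annotated class, the NMD transcript held 51.2 ± 5.69% of Foxp3 TPM and the 9 protein-coding transcripts 48.8 ± 5.69%. As a share of counts, which weigh longer transcripts more, the NMD transcript held 46.0 ± 5.13%. Among 2660 genes at 10 TPM or more on average that have an annotated NMD transcript, Foxp3 ranked 168th by this share, with 6.32% of genes at or above it, against a median of 6.245%. In that set 176 genes had over 50% of their TPM in such transcripts. Among those at 50 TPM or more, Foxp3 ranked 87th of 1267. The highest shares at that level were in Gm49396 and Gm20605 with 100% each and the peptidyl-prolyl isomerase gene Ppia with 99.1%. The mitochondrial leucyl-tRNA synthetase gene Lars2 followed with 95.2% and the mitochondrial ribosomal protein gene Mrps14 with 94.5%. Ppia stood at 3255 ± 198 TPM. The NMD class is that of the annotation, and whether the transcripts in it are degraded was not tested.

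Foxp3 was second of the FOXP family in level. Foxp1, which keeps T cells quiescent, stood at 231.54, 264.64 and 224.55 TPM, Foxp4 at 26.31, 29.27 and 30.31 TPM, and Foxp2, best known in the nervous system, at 1.23, 0.48 and 0.87 TPM. Foxp3 lay below Foxp1 and above both others in every library, without overlap. Foxp3 minus Foxp1 was -1.29 ± 0.11 in log2(TPM + 1), Foxp3 minus Foxp4 1.74 ± 0.11 and Foxp3 minus Foxp2 5.75 ± 0.30 (SD, n = 3; two-sided exact sign-flip permutation p = 0.25 each, the smallest possible). All 3 were apart. With each gene at the length of its longest protein-coding transcript, the differences were -0.70, 1.02 and 5.06. In M4 counts per kilobase they were -0.61, 1.60 and 6.51, but M4 counts level off at high expression: Cd3e, a chain of the T cell receptor complex, had 35629 expected counts and 1292 M4 counts in library 1.

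The Foxp3 locus carries genes that overlap Foxp3 on either strand. The annotation has 15 other genes within 100 kb, 7 of them detected and 5 without any count, and 4 of the 15 overlap Foxp3. Flicr, a noncoding RNA known in mouse to tune Foxp3 expression in Tregs, lies on the same strand and overlaps the first 7384 bases of the gene body. It had 20.97, 15.39 and 18.18 TPM, so that Foxp3 exceeded it 4.68-fold, 6.39-fold and 5.31-fold. Flicr was called different between libraries (chi-square test with Benjamini-Hochberg adjustment, adjusted p = 8.68e-12), lowest in library 2. On the opposite strand, Ppp1r3f, a regulatory subunit of protein phosphatase 1, overlaps 640 bases and stood at 17.3 ± 1.51 TPM. Ccdc22, a subunit of an endosomal recycling complex, overlaps 1437 bases at the long 3' end and stood at 21.9 ± 2.59 TPM. Gm36995, a noncoding transcript, spans all 21602 bases of Foxp3 and stood at 2.25 ± 0.0503 TPM. Of the 4803 stretches, 1109 occur in another gene on either strand, 706 of them in Flicr. Whether the counting used strand is not stated in the labels or headers, so reads in stretches shared with genes on the other strand cannot be told apart. Such stretches occur in Foxp3-201 to Foxp3-204 and Foxp3-209, which held 0.27, 0.57 and 0.07% of Foxp3 TPM in libraries 1 to 3. The 5 transcripts with the rest share stretches with Flicr or with no other gene. The non-overlapping neighbours detected were Syp at 8.18 ± 1.52, Prickle3 at 28.8 ± 6.08 and Plp2 at 81.6 ± 3.39 TPM.

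**Figure D5:**
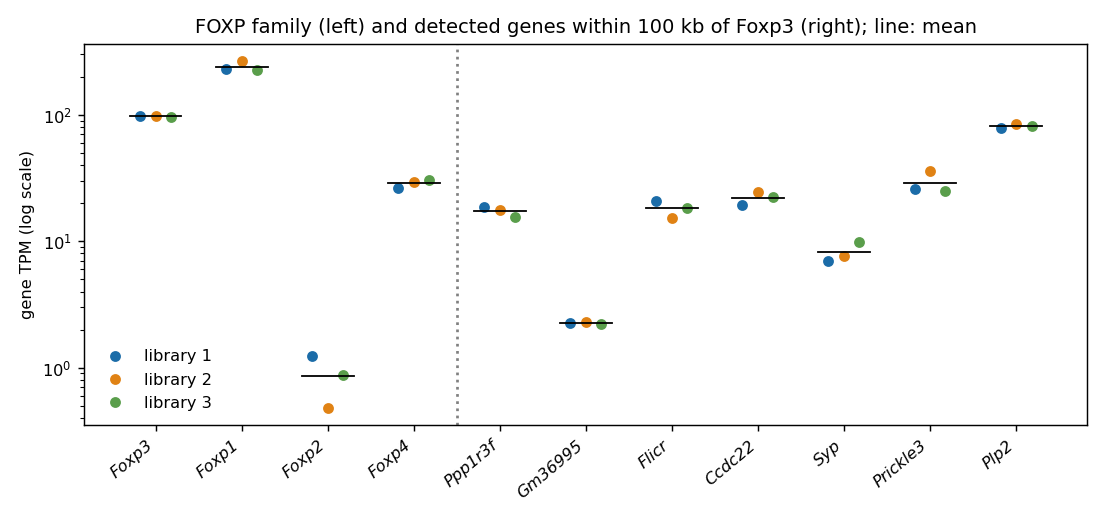
Gene TPM on a log axis for Foxp3 and its family (left of the dotted line) and for detected genes within 100 kb of Foxp3 (right), with a point per library and a line at the mean. Foxp3 lies between Foxp1 and Foxp4 and above all of the neighbours shown.

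The genes nearest to Foxp3 in level and pattern over the 3 libraries were Tmem254c, the peroxisomal protease gene Lonp2, the kinetochore gene Zwint, Mum1 and the dynactin subunit gene Dctn2. Their Euclidean distances in log2(TPM + 1) over 3 libraries were 0.0113 to 0.0572. With 3 libraries of nearly equal level, the distance measures mostly a like mean, and 36 genes lay within 0.1.

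Genes that act on Foxp3 or with it were broadly present. Of 24 factors known to bind Foxp3 regulatory DNA, 24 were detected, with a median of 78.0 TPM, 9 of them above Foxp3, and 23 of 24 were called different between libraries, beside 77.2% of all genes. Ets1 stood highest at 765 ± 39.1 TPM, followed by Ikzf2, which encodes Helios, at 377 ± 50.7 and Bcl11b, a T cell identity factor, at 240.7 ± 20.3 TPM. Foxo3 was the lowest at 2.85 ± 0.569 TPM. Of 8 enzymes and readers of DNA methylation, 8 were detected and 7 called, their median being 34.0 TPM, from the methyl-CpG binding protein Mbd2 at 299 ± 18.8 TPM and the maintenance methyltransferase Dnmt1 at 51.9 ± 7.46 TPM to the methyltransferase Dnmt3b at 4.33 ± 1.53 TPM.

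The lists that follow stand beside 77.2% of all genes tested called, 86.3% of genes with a count like that of Foxp3 called, and 23.2% of all genes detected. Of 27 protein partners and modifiers of FOXP3, 27 were detected and 25 called, their median being 66.4 TPM, from Tcf7, a factor of T cell identity, at 451 ± 56.6 TPM to the histone deacetylase Hdac9 at 4.30 ± 2.09 TPM. Of 14 genes known to be raised by FOXP3, 14 were detected and 14 called, with a median of 228 TPM. The highest was Izumo1r, folate receptor 4, at 882 ± 36.2 TPM, and the lowest Entpd1, the ectonucleotidase CD39, at 56.5 ± 2.39 TPM. Of 8 genes known to be lowered by FOXP3, 7 were detected and 8 called, with a median of 41.1 TPM, from Tcf7 and the phosphatase Ptpn22 at 273 ± 35.2 TPM to the cytokine Il2 at 1.30 ± 0.692 TPM. The lists share members such as Tcf7, Foxp1 and Bcl11b, and genes tested had a median of 8.89 TPM. Of 18 NMD factors, 18 were detected and 16 called, with a median of 37.6 TPM, from the exon junction helicase Eif4a3 at 232 ± 22.5 TPM to Upf2 at 13.0 ± 2.11 TPM.

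Markers of T cells and Tregs were all present, and the libraries differed in the summed levels of other marker lists. The marker list held 8 genes, all detected. Cd4 and Cd3e, at 379.6 and 1119 TPM, mark CD4 T cells and T cells in general. The other 6, Foxp3, Il2ra, Ctla4, Ikzf2, Tnfrsf18 and Izumo1r, are high in Tregs and stood between 97.6 TPM for Foxp3 and 882 TPM for Izumo1r. Summed TPM of 8 resting T cell markers was 2150, 2751 and 2093 in libraries 1 to 3, and of 10 activated Treg markers 1714, 1086 and 1401. Library 2 was the highest in the first sum and the lowest in the second. Among the resting markers, Il7r was highest in library 1 instead, with 314.12, 202.89 and 197.27 TPM. Markers of B cells summed to 55.6, 61.0 and 53.8 TPM with 4 of 5 detected, and markers of myeloid cells to 2.06, 0.85 and 3.04 TPM with 0 of 5 detected and Cd14 at 0 counts. Of 6 cytokine markers of conventional CD4 T cells 3 were detected, with sums of 74.15, 75.46 and 68.45 TPM. Cd40lg made up most of each sum, at 60.16, 59.01 and 49.08 TPM. The other markers detected were less even, with Ifng at 11.34, 6.25 and 14.28 TPM and Il4 at 1.31, 8.11 and 3.81 TPM. Il2, Il17a and Il21 were not detected. Of the chains of CD8, Cd8a had 1.39, 3.15 and 0.67 TPM and Cd8b1 had 18.03, 23.38 and 16.2 TPM, each highest in library 2. What part these lists have in the Foxp3 values was not tested. TPM is shared out of a fixed total, and library 3 had the lowest TPM of Foxp3 but the highest TMM-scaled count. With the 6 salivary gland markers left out of TMM scaling and the test, the call for Foxp3 did not change. That setting could hardly change it, because TMM trims extreme genes. The TMM factor of library 3 was 1.05075 with these markers and 1.05054 without them. TPM and CPM were not recomputed without them.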

How the data were processed

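Polyadenylated RNA was sequenced in 3 libraries, with the assembly given as mm10 per the labels. No label or header names the aligner or the counting program (not given in the sources used here). Against GENCODE M21, the authors' tables hold expected counts, posterior mean counts with SD, TPM, posterior mean TPM with bounds, and FPKM, per the file headers. FPKM was read but supports no result. In the deposited transcript tables, each transcript also has its percent of gene TPM. The M4 tables, deposited for each library, give counts as whole numbers. Totals in named genes were 35592206, 31611422 and 37728241 expected counts, and M4 totals were 9718021, 8945992 and 9904722. Rows without a gene (transfer RNAs, spike-ins) held 0.170, 0.170 and 0.218% of counts and stayed out of library sizes and tests.

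Rounded expected counts (whole numbers) were TMM-scaled in edgeR 4.0.16 (R 4.3.3). Python 3.11.15 with numpy 2.4.6, pandas 2.3.3 and scipy 1.17.1 ran a Poisson chi-square test per gene and, for transcripts, a chi-square test whose variance was the count plus the squared posterior SD, at a mean count of at least 10, with Benjamini-Hochberg adjustment at 0.05. With 1 group, no contrast of conditions was possible and no quasi-likelihood test was run. These tests were checked on data simulated with counting noise and, for transcripts, the posterior SD. That check does not cover other spread between libraries. Both tests treat amplified reads as independent molecules. The pseudocount of log2 values was 1. Members, lists and tests were chosen with earlier results of these data known. Named genes are Foxp3, its transcripts and paralogs, genes within 100 kb, the 3 highest and the lowest member of each list, the 5 nearest genes and the 5 with the highest NMD share; not all of them are printed. Cd3e, Cd4, Cd8a, Cd8b1, Il2ra and Ctla4 were named after their values were seen. Alternatives covered scaling, with DESeq2 1.42.0 among them, filters, variance, pseudocount, length and leaving out each library.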

Additional observations from a re-analysis of the deposited data

How the results depend on the processing

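No paired analysis was possible because the samples form 1 group. The count of genes called different between libraries was 14094, and 6286 with the M4 counts. Leaving out each library in turn gave a range of 9267 to 11076. For Foxp3 itself, leaving out each library gave log2 ratios of 0.0336 to 0.0814 between highest and lowest library, called without library 2 only (adjusted p = 0.0321 from the Poisson chi-square test with Benjamini-Hochberg adjustment). Of 6 Foxp3 transcripts, 0 were called beside 38% of all transcripts, and 5 with Poisson noise alone, beside 76.5%. Leaving out each library gave 0 to 1, with 0 beside 26% of all transcripts without library 1, 0 beside 19% without library 2 and 1 beside 28.1% without library 3. The Foxp3 level of 97.6 TPM was 43.3 at the length of the longest protein-coding transcript and 91.5 as posterior mean TPM, both settings chosen after seeing the data. Scaled by total count, the ratio of library 3 to library 1 was -0.00196 on the log2 scale, against 0.0814 with TMM, and was not called either way. In the other settings run, the 3 paralog differences kept their direction and call, and the NMD share stayed within 1 SD of its mean. Of 45 transcript pairs, 22 to 32 were apart. The 32 came from CPM without length correction, where the deposited bounds were not part of the rule. A posterior SD of 45.6 to 139% of the count limits the share of Foxp3-210.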
